A study of Mus musculus with 2 samples.

Results

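Windows of 100 bp that hold 11 or more CpGs were studied in mouse testis. They were all the windows with at least 11 CpGs on the 19 autosomes in the deposited table of 2537435 windows. There were 4825 such windows, or 0.196% of the 2460832 windows that the table lists on the autosomes. Among listed windows the choice was made by CpG number alone. The table itself was selected by the authors on read counts, as described below, so read counts did decide which windows could enter. These windows are called CpG-dense here.

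DNA of C57BL/6 testis was sheared, and methylated fragments were captured on beads carrying the part of mouse MBD2 that binds methylated CpGs and sequenced, per the labels. There were 2 libraries, 1 per genotype. The wildtype library came from the testis of a wildtype mouse. The other came from a Kaiso knockout (KO) labelled as generation 3 offspring and as a sterile male, and both carried the C57BL/6 background. The description of the knockout sample names wildtype and knockout mice at once, so each knockout value rests on the genotype label. The labels give no age, no number of animals and no separation of cell types. In DNA from a whole testis, a different share of a cell type and a different methylation level within that type cannot be told apart.

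CpGs are mostly methylated in mammalian genomes, and most dense runs of them, the CpG islands, are kept free of methylation. Islands that do carry methylation in body cells include those of imprinted genes on 1 parental allele and those of genes reserved for the germline. Kaiso, the protein of Zbtb33, is a zinc finger protein of the POZ family known to bind methylated CpGs. A capture assay of this kind recovers methylated DNA, and a fragment with more methylated CpGs binds more strongly.

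The letters of a few of these windows show what was counted. The 5 windows below lie upstream of or at the start of named genes, belong to genes described later, and are read from the RefSeq promoter table of GRCm38.p6, the mm10 assembly. Each is written 5′ to 3′ on the strand of its gene, and capitals mark the CpGs. The Rbmxl2 window shows 10 of its 11 CpGs, as it ends in the C of the last one.
Rbmxl2, chr7:107209301-107209400, plus strand: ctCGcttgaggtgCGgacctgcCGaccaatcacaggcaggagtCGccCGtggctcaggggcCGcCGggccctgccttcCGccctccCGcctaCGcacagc
Dazl, chr17:50293701-50293800, minus strand: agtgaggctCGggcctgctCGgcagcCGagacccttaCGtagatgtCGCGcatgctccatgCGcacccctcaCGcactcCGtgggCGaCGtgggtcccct
Sycp1, chr3:102936101-102936200, minus strand: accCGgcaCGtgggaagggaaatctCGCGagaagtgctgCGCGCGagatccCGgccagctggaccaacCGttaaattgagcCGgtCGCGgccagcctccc
Igf2r, chr17:12769801-12769900, minus strand: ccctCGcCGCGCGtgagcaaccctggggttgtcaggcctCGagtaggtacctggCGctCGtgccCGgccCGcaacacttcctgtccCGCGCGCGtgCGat
Sstr4, chr2:148395201-148395300, plus strand: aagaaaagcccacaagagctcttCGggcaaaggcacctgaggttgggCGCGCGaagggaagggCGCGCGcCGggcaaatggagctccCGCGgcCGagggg

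Rbmxl2 makes an RNA-binding protein of meiotic germ cells, and its window above had 8 wildtype and 74 knockout counts. Dazl, an RNA-binding regulator of germ cell development, had 8 and 88 in its window. Sycp1 makes the central filament of the synaptonemal complex and had 15 wildtype and 104 knockout counts. All 3 windows held several times more reads in the knockout library. The window of Igf2r, the receptor that clears insulin-like growth factor 2, had 1 and 40, and that of the somatostatin receptor gene Sstr4 had 0 and 14. Pairs of CpGs placed back to back, CGCG, stand in 4 of these 5 windows, and that of Rbmxl2 has none.

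The table holds windows selected by the authors on an unadjusted p under 0.05, and no listed window sums to fewer than 10 counts over both libraries. A window with few wildtype counts was therefore listed only where its knockout count was far higher, and selection pushes every listed ratio away from 1. Counts and medians of windows with under 10 wildtype counts are therefore descriptions that the listing itself shapes. With 1 library per genotype no difference has a replicate check. Intervals below are exact 95% Clopper-Pearson intervals that cover counting error only, and PCR copies are not independent molecules. Depth was 87710791 reads in the wildtype and 98549116 in the knockout library. Ratios are knockout over wildtype, scaled by library reads, on the log2 scale, with a count of 0 set to a floor of 3. The targeted gene Zbtb33, at chrX:38189793-38197046, had 16 listed windows with at most 4 CpGs, and so no CpG-dense one. They summed to 303 wildtype and 83 knockout counts, a log2 ratio of -2.04 (-2.80 to -1.31). Of all listed autosomal windows 38.3% were at least 2-fold lower, with 56.5% at 1 CpG and 5.38% at 4 CpGs. The drop at Zbtb33 alone is thus no check of the knockout.

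CpG-dense windows held more reads in the knockout library almost without exception. The wildtype count ran from 0 to 669 with quartiles of 3, 12 and 66. The knockout count ran from 5 to 795 with quartiles of 33, 76 and 122. The lower knockout quartile was thus above the wildtype median, though the ranges overlap. In RPKM, the authors' count per window length and library size, the medians were 1.37 wildtype and 7.71 knockout. Of the 4825 windows 4794 (99.4%) were higher in the knockout library, against 56.1% of all listed autosomal windows. This direction was not particular to them. Among listed windows with 8 to 10 CpGs 99.6% were higher and 0.413% lower, and with 5 CpGs 98.3% were higher. A ratio of at least 2 was found in 3076 windows (63.8%, 62.4 to 65.1), against 17.1% of all listed. A ratio of at least 4 was found in 2238 windows (46.4%, 45.0 to 47.8), against 9.26%. Only 31 windows were lower, 0.642% against 43.9% of all listed, and 19 of them (0.394%, against 38.3%) at least 2-fold.

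The median log2 ratio was 1.83 (1.71 to 1.87), with quartiles of 0.72 and 2.95, and that of all listed autosomal windows was 0.39. Setting listed windows of 5 or more CpGs to 0 lowered it to 1.17, and the split of higher against lower windows moved from 99.4% and 0.642% to 79.0% and 20.95%. Among windows with a summed count of 50 or more the median log2 ratio was 0.94. Counting 1 window per cluster gave 1.23.

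Most windows were either sparse or well covered in the wildtype library. A wildtype count of 0 was found in 554 windows (11.5%), 1 or 2 in 530, and 3 to 9 in 1115. In each of these 3 classes 100% were at least 2-fold higher, which the listing of such windows requires. At the other end 1440 windows (29.8%) had 50 to 99 wildtype counts and 225 had 100 or more. Between these kinds, 457 windows had 10 to 19 and 504 had 20 to 49. The knockout library had no window at 0. In the 50 to 99 class the median log2 ratio was 0.65, with 8.06% at 2-fold or more. That median becomes -0.01 when windows of 5 or more CpGs are set to 0. Windows with 3 to 9 wildtype counts had a median of 49 knockout counts and a median log2 ratio of 3.00. The plot of both counts shows the sparse kind as a broad band on the left and the covered kind as a compact cloud near the line of equal shares.

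**Figure D1:**
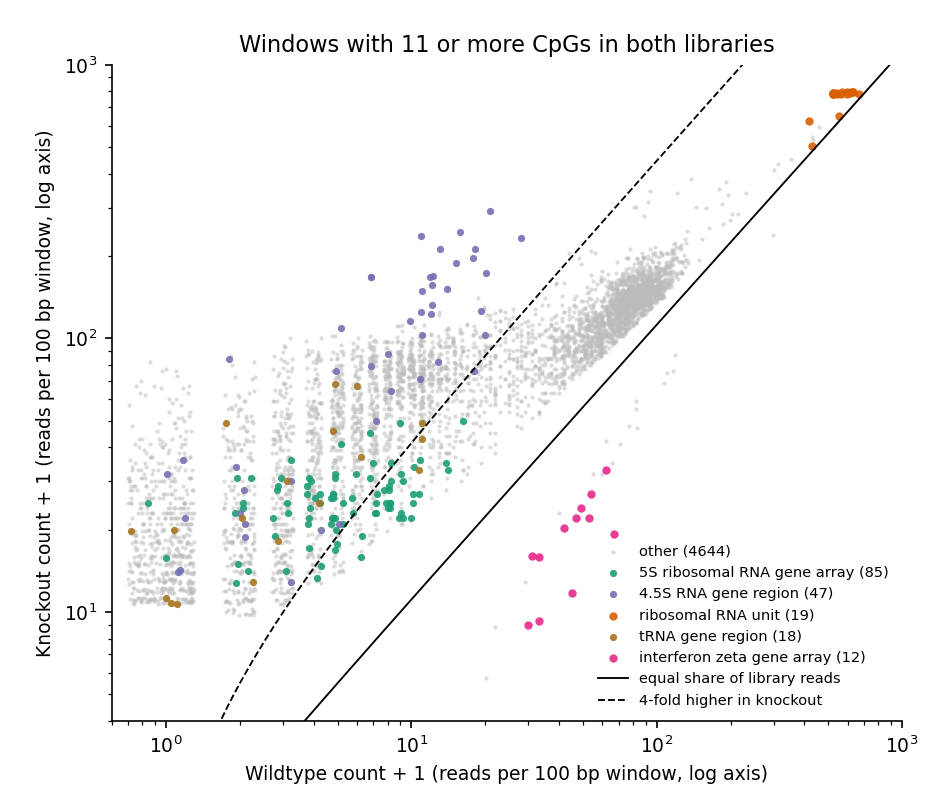
Each point is 1 of the 4825 windows with 11 or more CpGs, by its wildtype and knockout count plus 1 on log axes, with counts under 20 spread sideways for view. The solid line marks equal shares of library reads and the dashed line a ratio of 4, and 31 windows lie below the solid line, among them the 12 of the interferon zeta gene array.

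In proportion, the wildtype median fell more steeply with the number of CpGs than the knockout median. Just outside the threshold, the 3882 windows with 10 CpGs had medians of 68 wildtype and 124 knockout counts and a median log2 ratio of 0.78. Just inside, the 1980 windows with 11 CpGs, 41.0% of the CpG-dense windows, had 46 and 98 and a median of 1.03. The next class, 1105 windows with 12 CpGs, had 11 and 76. From there the wildtype median went from 8 at 13 CpGs to 6 at 16 and 4 at 17. The knockout median went from 65 to 42 and 30 over the same classes. Among the 142 windows with 17 CpGs 83.1% were at least 2-fold higher, and among the 147 with 18 or more 84.4%. Both classes had a median of 4 wildtype counts, so most of these windows were listed only with a high ratio. At 11 CpGs that share was 51.4%, at 10 CpGs 37.4%, and over the 25909 windows with 8 to 10 CpGs 30.4%. The largest step of the wildtype median thus lay between 11 and 12 CpGs. Its quartiles moved less there, from 6 and 79.25 to 4 and 64. The knockout median fell by smaller steps up to 17 CpGs and was 38 at 18 or more.

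**Figure D2:**
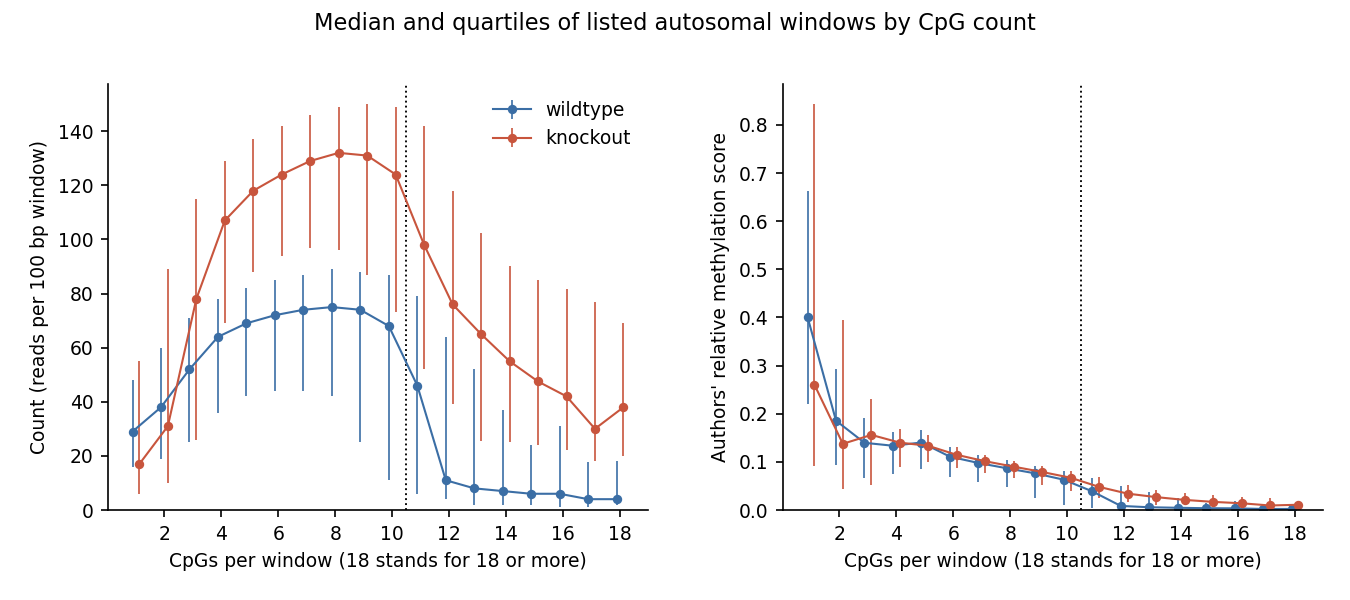
Median count (left) and median relative methylation score of the authors (right) of listed autosomal windows by CpGs per window, wildtype in blue and knockout in red, with quartiles as bars. The dotted line marks the threshold of 11 CpGs, and the wildtype median count goes from 46 at 11 CpGs to 11 at 12, while the knockout median goes from 98 to 76.

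The 5 windows with the most CpGs show the same range of wildtype counts. The window with 26 CpGs, chr9:114580001-114580100, had 1 wildtype and 40 knockout counts and no gene within 1 kb. A window with 25 CpGs at chr1:41049801-41049900 was covered in both libraries, with 45 and 105 counts, a log2 ratio of 1.05 (0.54 to 1.59). The other window with 25, chr10:67921001-67921100, had 9 and 71, a log2 ratio of 2.81 (1.81 to 3.998). A window with 24 CpGs at Pmfbp1, a gene of the sperm head-to-tail link, had 4 and 63 counts. The other, at Dact3, a gene of the Wnt pathway, had 1 and 11. All 5 were higher in the knockout library, and the intervals of both windows with 25 CpGs do not overlap each other.

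The authors' relative methylation score (RMS), which corrects reads for CpG density on a scale not stated in the sources used here, was higher in the knockout library in fewer windows than the reads. The median RMS was 0.00926 wildtype and 0.0328 knockout. Its median difference, knockout minus wildtype, was 0.00810, and 3946 of the 4813 windows with a score (82.0%) were higher in the knockout library, against 49.8% of all listed autosomal windows. The 12 windows without a score are all those with 22 or more CpGs. Reads and score disagreed in 836 windows (17.3%), which were higher by reads and lower by score. They are 17.5% of the scored windows higher by reads, against 11.2% over all listed windows and 37.2% at 8 to 10 CpGs. Reads and score thus disagreed less often here than in the class just below. The score is no second measurement, as within each library and CpG number it rose in proportion to the count. Among CpG-dense windows it was higher in the knockout library at log2 ratios from 0.61 upward, and lower at ratios up to 0.64. Those windows were well covered, with medians of 85 wildtype and 133 knockout counts. Their log2 ratios lay between 0.06 and 0.64, so none was 2-fold higher, and their median RMS went from 0.0682 to 0.0617. All 31 windows lower by reads were lower by score as well, which their read ratios fix. At 10 CpGs the median RMS was 0.0629 and 0.0670, and at 11 CpGs 0.0387 and 0.0480.

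Most CpG-dense windows had no other listed one within 1 kb, and the rest stood in small groups. Only listed windows were seen, so a window alone here may stand beside CpG-dense windows that the table leaves out. Another CpG-dense window lay within 1 kb of 40.1% of them, and directly adjacent to 29.7%. Listed windows with exactly 10 CpGs had another of their class within 1 kb in 16.4% and adjacent in 3.86%. The broader class of 8 to 10 CpGs, which has more windows, had 45.1% and 12.6%, and all listed autosomal windows had 97.6% and 86.2%. Joining windows up to 1 kb apart gave 3537 clusters, of which 2889 (81.7%) held 1 window. The other 648 clusters held 1936 windows, with a median span of 300 bp and a largest span of 3000 bp.

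Clustered windows were mostly sparse in the wildtype library. Single windows had medians of 46 wildtype and 97 knockout counts, a median log2 ratio of 0.97, and 48.9% at least 2-fold higher. Clusters of 2 had 5 and 48, clusters of 3 had 5 and 42, and the 40 clusters of 6 or more windows had 3 and 37. In those 40 clusters the median log2 ratio was 2.89 and 92.5% of windows were at least 2-fold higher. With so few wildtype counts, most clustered windows were listed only with a high ratio. The listing thus shapes this contrast with single windows. Of the 648 clusters with several windows, 529 (81.6%) had every window at least 2-fold higher, 86 had none and 33 were mixed. The SD of the log2 ratio was 0.61 within clusters and 1.12 between cluster means. Fragments of 200 to 400 bp reach across adjacent windows, so neighbours share reads and are not replicates of each other.

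Of the 10 clusters with the most windows, 9 had a ratio of at least 2 in every window. For the intervals of sums over windows, counts were divided by 4 to approximate fragments. The second largest, with 16 windows at chr8:69881001-69883000, lies at Cilp2, a gene of cartilage matrix. It had 0 to 23 wildtype and 21 to 73 knockout counts per window, and sums of 90 and 672 gave a log2 ratio of 2.73 (2.12 to 3.48). The 14 windows at chr5:143253201-143255100, at the zinc finger gene Zfp316, summed to 110 and 527, a log2 ratio of 2.09 (1.47 to 2.71). The 13 windows at chr7:143459201-143461400, over the growth inhibitor and imprinted gene Cdkn1c, summed to 51 and 440, a log2 ratio of 2.94 (2.08 to 3.87). None of these 3 clusters held a window lower in the knockout library.

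The 11 windows at chr7:107209301-107210600 run along most of Rbmxl2, a gene without introns. Their wildtype counts were 8, 10, 10, 4, 3, 4, 6, 9, 9, 8 and 8, and the knockout counts in the same order were 74, 78, 60, 25, 16, 13, 27, 39, 56, 73 and 75. The groups do not overlap, and the knockout counts dip in the middle of the gene. The summed log2 ratio was 2.59 (1.89 to 3.33). The cluster of Sema6c, an axon guidance gene, had 9 windows with sums of 49 and 472, a log2 ratio of 3.10 (2.27 to 4.12). At Agap3, which encodes a regulator of Arf GTPases, 9 windows had no wildtype count and 10 to 30 knockout counts each, a log2 ratio of at least 3.71 against a floor of 12 window counts, or 3 fragments.

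Another 3 of these clusters had 8 windows each. Inside Fam171a2, within 1 kb of the progranulin gene Grn, the sums were 7 wildtype and 255 knockout counts, a log2 ratio of 5.02 (2.92 to 7.91). At Hic1, a POZ zinc finger repressor whose island lies inside the span of Smg6, they were 5 and 223, a log2 ratio of 5.31 (3.10 to 10.97). At Tmem151b they were 16 and 137, a log2 ratio of 2.93 (1.43 to 4.88). The largest cluster of all, described next, had no window at 2-fold.

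Repeated genes for structural RNAs held several of the densest stretches, here 10 or more CpG-dense windows up to 10 kb apart, a grouping chosen after the values were seen. There were 15 such stretches with 289 windows (5.99%). Reads from near-identical copies cannot be placed with certainty, and their treatment by the authors is not stated in the sources used. The stretch at chr17:39843101-39848800 belongs to a ribosomal RNA unit next to the pseudogene Rn18s-rs5 and the lncRNA AY036118. Its 19 windows had 417 to 669 wildtype and 506 to 795 knockout counts, and they are 19 of the 29 CpG-dense windows with more than 200 wildtype counts. Their median log2 ratio was 0.31, which becomes 0.04 with total counts and -0.35 when windows of 5 or more CpGs are set to 0. By score all 19 were lower in the knockout library, with median RMS of 0.377 wildtype and 0.305 knockout. At such read ratios the score is lower by its construction.

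The 5S ribosomal RNA genes at chr8:123538901-123623800 held 85 CpG-dense windows with a median of 4 wildtype counts (0 to 15) and 24 knockout counts (12 to 49). Their median log2 ratio was 2.22, or 1.56 when windows of 5 or more CpGs are set to 0. Around the 4.5S RNA gene Rn4.5s on chr6, 21 windows at chr6:47655301-47686100 had medians of 1 and 33. The neighbouring 26 windows at chr6:47740201-47777900 had 11 and 118.5, a median log2 ratio of 3.33. Transfer RNA genes at chr1:171064001-171081300 held 18 windows with medians of 2 and 26.5, and tRNA and snRNA genes at chr3:96450201-96460400 held 10 with 0 and 14.5. Across the annotation 44 of 61 rRNA genes and 21 of 391 tRNA genes had a CpG-dense window within 1 kb. The 84 windows at rRNA genes had medians of 4 wildtype and 24 knockout counts, and the 27 at tRNA genes had 1 and 19. Such low wildtype counts were listed only with a high ratio, so these windows and those of the unit on chr17 are not compared.

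Other dense stretches lay at single protein-coding genes. Crb2, a cell polarity gene, had 10 windows at chr2:37786501-37793900 with medians of 7 and 51.5. Scarf2, a scavenger receptor gene, had 11 at chr16:17798201-17807200 with 1 and 18. At the zinc finger gene Zfp993, chr4:146932301-146942600, 11 windows had medians of 28 and 68, and 9 of 11 were at least 2-fold higher. A stretch at chr12:21778401-21784700 had 10 windows with medians of 2.5 and 26.

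The windows lower in the knockout library were few and 12 of the 31 lay in 1 gene array. These 12 windows, at chr4:88757501-88806000, recur with a median step of 3000 bp through the interferon zeta genes, a family of tandem interferon genes annotated as Ifnz and Gm13283, Gm13276, Gm13288 and others. The wildtype counts ran from 29 to 66 with a median of 45, and the knockout counts from 8 to 32 with a median of 18.5. Their log2 ratios ran from -2.17 to -1.10. Each of the 12 had an interval below 0 and was lower by score as well, with median RMS of 0.0358 and 0.00803. Neither is separate support, as the listing used the same counts and the score rose in proportion to them. The window nearest Gm13283, chr4:88760501-88760600, had 66 and 18 counts, and that nearest Gm13276, chr4:88785401-88785500, had 44 and 11. All 12 stayed lower under each of the 3 other scalings. Of all 223 windows listed in this array 110 were lower and 113 higher, and the direction went with the CpG number. With 2 CpGs 13 of 49 were lower and with 3 CpGs 9 of 28, while with 8 CpGs 8 of 9 were lower, with 9 CpGs 3 of 3 and with 10 CpGs 4 of 5. Single-CpG windows were lower in 20 of 27. Its gene copies resemble each other, and the placing of reads among like copies is not stated.

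The other 19 lower windows were scattered. A run of 4 adjacent windows without a gene within 1 kb, chr2:46281801-46282200, held 16 to 20 CpGs each with 59 to 70 wildtype and 31 to 41 knockout counts. At Myof, a membrane repair gene, a window with 16 CpGs had 19 and 5 counts, a log2 ratio of -2.09 (-3.87 to -0.62). A pair of adjacent windows near Hmx1, a homeobox gene of eye and ear, had 21 and 32 wildtype and 8 and 15 knockout counts. At Stk11, a kinase gene of growth control, 1 window had 82 and 46, a log2 ratio of -1.002 (-1.56 to -0.46). At the vomeronasal receptor gene Vmn2r29 1 window had 298 and 238. The 31 windows had medians of 54 wildtype and 26 knockout counts, and all 31 intervals lay below 0. The windows were listed on a p from the same counts, so these intervals are no separate support.

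The largest differences by interval were in windows without a wildtype count. The window at chr19:7422801-7422900, near 2700081O15Rik and Mir6991, had 0 and 81 counts, at least 24.03-fold higher by the floor of 3 counts. A neighbour at chr19:7423001-7423100 had 0 and 72. A pair of adjacent windows at chr2:18039701-18039900 with no gene within 1 kb had 0 wildtype counts and 75 and 76 knockout counts. The window chr6:52170601-52170700 at Hoxa3, a patterning gene, had 0 and 75 counts, at least 22.3-fold higher.

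Place in the genome went with the wildtype count. Gene starts were read on the 18 autosomes that the promoter table covers, which hold 4691 CpG-dense windows. Within 1 kb of a start stood 624 of them (13.3%), against 3.10% of all listed windows and 5.36% of those with 8 to 10 CpGs. These had medians of 3 wildtype and 32 knockout counts, no wildtype count in 24.8%, and 90.2% were at least 2-fold higher. Inside protein-coding genes but farther from a start stood 2151 windows (45.9%) with medians of 10 and 71, and 67.6% were at least 2-fold higher. In other genes, such as those of noncoding RNAs, stood 489 (10.4%) with medians of 10 and 74, and 75.5% were at least 2-fold higher. Outside genes stood 1427 (30.4%) with medians of 58 and 111, and 42.5% were at least 2-fold higher. The windows near starts thus had the lowest counts in both libraries and the largest ratios, with a median log2 ratio of 2.62 against 0.86 outside genes. At a median of 3 wildtype counts, most windows near starts were listed only with a high ratio. The listing thus shapes these shares and ratios. All listed windows within 1 kb of a start had medians of 17 and 35 and 50.6% at least 2-fold higher.

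The number of CpGs and the place both went with the ratio. Both also went with the wildtype count, so the listing shapes the values below as well. Outside genes the median log2 ratio was 0.72 at 11 CpGs and 1.92 at 15 or more. Over the same classes the wildtype median went from 74 to 8 and the knockout median from 133 to 60. Inside protein-coding genes the ratio went from 1.46 to 2.42. Near starts it was 2.61 at 11 CpGs and 2.42 at 15 or more, so it differed little by CpG number there.

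**Figure D3:**
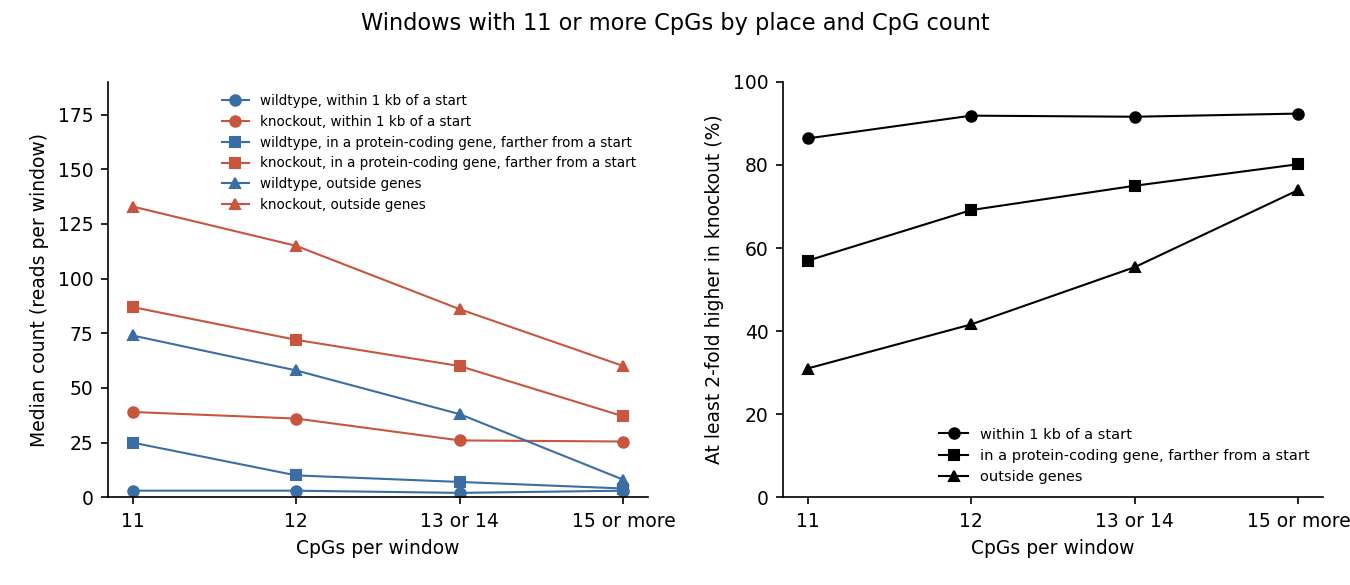
Windows with 11 or more CpGs by CpGs per window and place on 18 autosomes. Median counts are on the left (wildtype blue, knockout red, marker by place) and the percentage with a ratio of at least 2 on the right. Near gene starts the percentage lies between 86.4 and 92.4 in every class, and outside genes it goes from 31.0 to 74.0. Windows with few wildtype counts were listed only with a high ratio, which shapes these percentages.

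Windows with fewer CpGs next to a cluster were more often at least 2-fold higher than listed windows at large. The ratio of such a window was not set against that of its own cluster. Among listed windows with under 11 CpGs, 59.5% of those less than 0.1 kb from a cluster were at least 2-fold higher, against 16.96% of all of them. The share was 60.6% at 0.3 to 0.5 kb, 50.1% at 0.5 to 1 kb, 24.9% at 1 to 2 kb and 16.9% at 2 to 5 kb. Windows with a single CpG gave 49.6%, 63.8%, 51.2%, 21.1% and 13.6% over the same distances, against 13.2% of all single-CpG windows. The raised shares thus lay mostly within 1 kb of a cluster. They were not matched by place, and of all listed windows within 1 kb of a gene start 50.6% were at least 2-fold higher. Windows within a fragment length of a cluster share its reads, and the larger distances exceed the sheared fragment size of 200 to 400 bp.

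**Figure D4:**
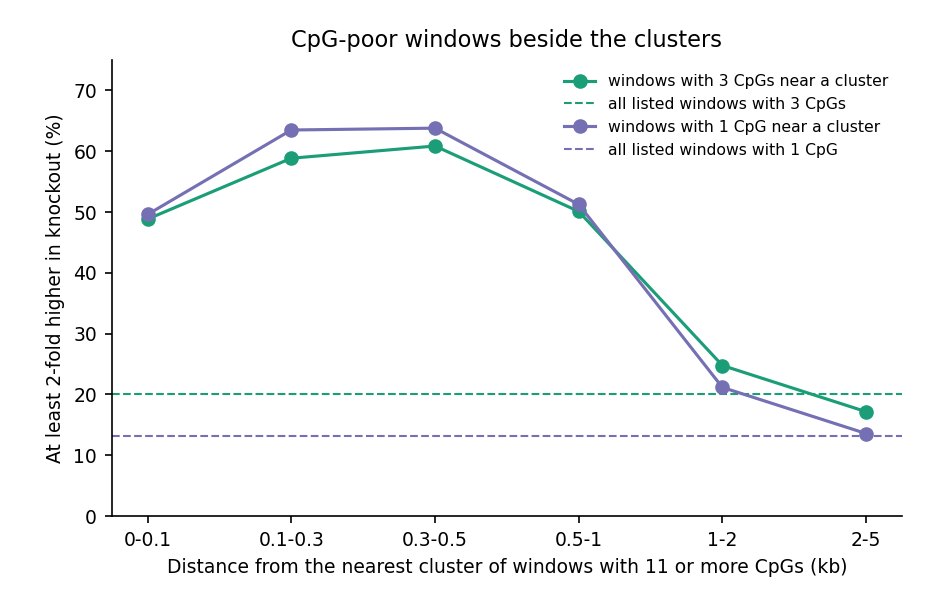
Percentage of listed windows with 1 CpG or 3 CpGs with a ratio of at least 2, knockout over wildtype, by distance from the nearest cluster of CpG-dense windows, with dashed lines for all listed windows of the same CpG number. Single-CpG windows lie at 63.8% at 0.3 to 0.5 kb and at 13.6% at 2 to 5 kb.

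CpG-dense promoters were seldom listed at all. Promoter sequences reach from 250 bases before a start to 50 after it, and 6829 windows of 100 bp inside them hold 11 or more CpGs by their letters. Only 103 of these (1.51%, 1.23 to 1.83) were in the table, against 6.42% of promoter windows with 6 to 10 CpGs and 24.9% of those with 3 to 5. The 103 had medians of 4 wildtype and 39 knockout counts, 93 were at least 2-fold higher and 4 were lower. Windows outside the table have no values here. The deposited CpG number equalled the letters in 7652 of 7877 listed promoter windows. In the other 225 it was higher by 1, and each of these windows ended in C with the next base G or not given.

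Motifs were searched on both strands in the same windows. CGCG, which overlaps the CpGs that define the windows, stood in 92 of the 103 listed windows (89.3%) and in 88.7% of the 6726 not listed, against 21.04% of all 58882 promoter windows. TCCTGCNA, known as the sequence-specific Kaiso site, stood in 2 of 103 (1.94%, 0.236 to 6.84), in 0.699% of those not listed and in 1.60% of all. For both motifs the share in unlisted windows lies inside the counting interval of the listed ones, which for CGCG runs from 81.7% to 94.5%.

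Of 20665 protein-coding genes on the autosomes 1781 (8.62%) had a CpG-dense window within 1 kb of their span, and 2836 windows (58.8%) lay there. Within 1 kb of either end of a protein-coding gene stood 788 windows (16.3%), against 4.38% of all listed windows and 7.25% of those with 8 to 10 CpGs. They had medians of 3 wildtype and 35 knockout counts, and 699 were at least 2-fold higher. They touched 512 genes, or 2.48% of the 20665, 330 of them with 1 window, and 209 genes had the minimum of 20 fragments. A gene end was called higher or lower when its ratio reached 2 or 0.5 and its interval left out equality. Of those 209, 149 (71.3%) were called higher, against 21.2% of gene ends over all listed windows, and 1 (0.478%), Gm13283, was called lower, against 13.5%. The other 59 were not called. At a median of 3 wildtype counts, many of these windows were listed only with a high ratio. The listing thus shapes these calls and their comparison with the 21.2%. Without the division by 4, which is an approximation, 341 were called higher and 12 lower, and a minimum of 10 fragments gave 241 and 2. Ends taken as 500 bp gave 79 higher, and as 2 kb 253 higher and 6 lower. Among listed gene groups below, the shares to read against are 2.48% of genes with a window and, of those with the minimum, 71.3% higher and 0.478% lower. Calls compare these 2 libraries and not the genotypes.

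The 10 genes with the most CpG-dense windows at their ends included Rbmxl2 and Cdkn1c, given above. Boll, an RNA-binding relative of Dazl, had 12, 12, 12, 10, 3 and 1 wildtype counts and 78, 69, 68, 60, 28 and 9 knockout counts. Its summed log2 ratio was 2.47 (1.65 to 3.55). Rbm46, an RNA-binding gene needed for meiosis, had 2 to 5 wildtype and 45 to 53 knockout counts in 6 windows, a log2 ratio of 3.62 (2.39 to 5.35). In both genes every knockout count exceeded the wildtype count of the same window. Meioc, which keeps germ cells in meiosis, had 4, 7, 8, 9 and 10 against 78, 76, 85, 76 and 41, a log2 ratio of 3.06 (2.04 to 4.09). Oxct2a, a testis enzyme of ketone body use, had 56, 7, 2, 0 and 0 against 117, 62, 47, 22 and 11. Its ratio of 1.83 (1.05 to 2.74) was the smallest of the 10 genes, and 1 of its 5 windows held most of the wildtype counts. Doc2b, a calcium sensor gene of vesicle release with 6 windows, had 0 or 1 wildtype counts in each against 10 to 27, a log2 ratio of 4.85 (1.80 to 9.78).

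The list of germline genes silenced in body cells had 16 of 52 annotated genes (30.8%) with a CpG-dense window, against 2.48% of all protein-coding genes, of which 10 were called higher, none lower, 1 neither and 5 had under 20 fragments. Its 28 windows had a median of 9 wildtype counts (1 to 48) and 73.5 knockout counts (11 to 111). The median log2 ratio was 3.03, beside 2.55 over the 788 windows near any gene end. In both sets windows with few wildtype counts were listed only with a high ratio, so the listing shapes these medians and calls. Dazl had 1, 1, 6 and 8 wildtype and 20, 36, 75 and 88 knockout counts. Sycp1 had 7, 13 and 15 against 72, 96 and 104. Tex12, another synaptonemal complex gene, had 10 and 14 against 111 and 97, and its 111 is the highest knockout count of the list. Ddx4, the germ cell RNA helicase, had 15, 19 and 16 against 58, 48 and 52, and its log2 ratio of 1.49 (0.61 to 2.64) was the smallest of the 10 called. The piRNA pathway genes Mael and Tdrd1 summed to 15 and 13 wildtype and 177 and 119 knockout counts, and Tdrd6, with 48 and 83, was not called.

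Genes imprinted by methylation of the maternal allele had 12 of 32 (37.5%, against 2.48%) with a CpG-dense window, 8 called higher, none lower and 4 under 20 fragments. Their 30 windows had a median of 3 wildtype counts (0 to 10) and 38 knockout counts (18 to 69). The median log2 ratio was 3.32, beside 2.55 over all 788 windows near gene ends. With at most 10 wildtype counts, these windows were listed only with a high ratio. Peg12 had 1 to 6 wildtype and 18 to 26 knockout counts in 7 windows, a log2 ratio of 2.43 (1.24 to 4.03). Peg10, a gene derived from a retrotransposon, had 3, 6, 3 and 4 against 45, 35, 54 and 55, and its first 3 windows are also those of its neighbour Sgce. At the end of Kcnq1ot1, the long RNA of the Cdkn1c domain, 2 windows summed to 0 wildtype and 135 knockout counts. Igf2r had 5, 3, 1, 2, 1 and 1 against 33, 18, 23, 31, 39 and 40. Its windows stand at the gene start, while its maternal imprint is known to lie in an intron. None of the 10 genes imprinted by paternal methylation had a CpG-dense window.

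Maternal imprints and the promoters of germline genes are known to be methylated in body cells and largely not in male germ cells. The part of the cell makeup of both testes in these values was not tested. In lists of testis cell types the shares of genes with a CpG-dense window were 5% for Sertoli, 7.14% for Leydig and 2.44% for spermatid genes, beside 2.48% of all protein-coding genes. Each share is 1 gene. Of 20 Sertoli cell genes it was Trf, with 21 and 59 counts and no call. Of 14 Leydig cell genes it was the hormone gene Insl3, with 0, 0 and 3 against 37, 32 and 38 counts and a call as higher. Of 41 spermatid genes it was Spaca1, a gene of the acrosome membrane, with 6 and 50 counts, which is under the minimum.

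Patterning genes had few reads in both libraries. Hox genes had 10 of 39 (25.6%, against 2.48%) with a CpG-dense window, 3 called higher, none lower and 7 under the minimum, and their 16 windows had medians of 1 and 21 with wildtype counts of 0 to 5, which are listed only with a high ratio. Hoxa5 and Hoxa6 share 4 windows with 3, 1, 1 and 1 against 65, 38, 26 and 53 counts, a log2 ratio of 4.75 (2.42 to 7.44). The broader list of developmental transcription factors had 11 of 128 (8.59%), with 2 called higher, none lower and 9 under the minimum, and medians of 1 and 16 in 21 windows. Its wildtype counts of 0 to 6 carry the same limit. Cdx1, a factor of the gut, was called with 4, 4, 5 and 6 against 56, 60, 50 and 29. Hand1, a heart factor, was called with 2 and 3 against 34 and 44. Foxc1 had 0 and 0 against 16 and 48 and stayed under the minimum. Clustered protocadherins had 3 of 58, 1 called higher, 1 neither and 1 under the minimum, and Pcdhb22 had 55 and 59 against 124 and 130.

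Receptors and channels of neurons had 8 of 52 genes (15.4%, against 2.48%) with a CpG-dense window, 2 called higher, none lower and 6 under the minimum. Their 16 windows had medians of 0 and 14.5 counts and a median log2 ratio of 2.10, beside 2.55 over all windows near gene ends. Ratios at a wildtype count of 0 are lower bounds set by the floor of 3, so 2.10 need not be a smaller difference. With so few wildtype counts most of them were listed only with a high ratio, so the listing shapes these values. Grin3b, a glutamate receptor subunit, had 11, 9 and 17 against 88, 87 and 86, and its log2 ratio was 2.65 (1.67 to 3.88). Kcnk12, a potassium channel gene, had 0 in 4 windows against 22, 18, 11 and 36, at least 6.45-fold higher. Histone genes shared 1 window between H2bc1 and H2ac1, with 3 and 89. Of 73 ribosomal protein genes 1 had a window, Rps6, with 1 and 37, and none of 21 genes of the DNA methylation machinery had one.

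Of the 10 protein-coding gene ends whose interval lay farthest above 0, Rbm46, Hoxa5 and Hoxa6 are given above. Gltpd2, a gene of glycolipid transfer, had 1, 0 and 0 wildtype and 63, 43 and 40 knockout counts, with an interval from 3.04 upward. Hspa1b and Hspa1a, the paired genes for the stress-induced chaperone Hsp70, had 2 and 5 wildtype and 145 and 189 knockout counts, and as near-identical copies they may share reads. Every wildtype window of the Hsp70 pair but 2 was at 0. Nrtn, a growth factor gene of the GDNF family, had 3, 3, 4, 4 and 3 against 51, 52, 46, 46 and 81, a log2 ratio of 3.85 (2.52 to 5.86). Fam171a2 had no wildtype count in 4 windows against 42, 22, 18 and 17, at least 7.34-fold higher. Trim44, a gene of the tripartite motif family, had none in 3 windows against 50, 31 and 14, at least 7.05-fold higher. Fem1al had 2, 2, 3 and 3 against 39, 45, 48 and 54.

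**Figure D5:**
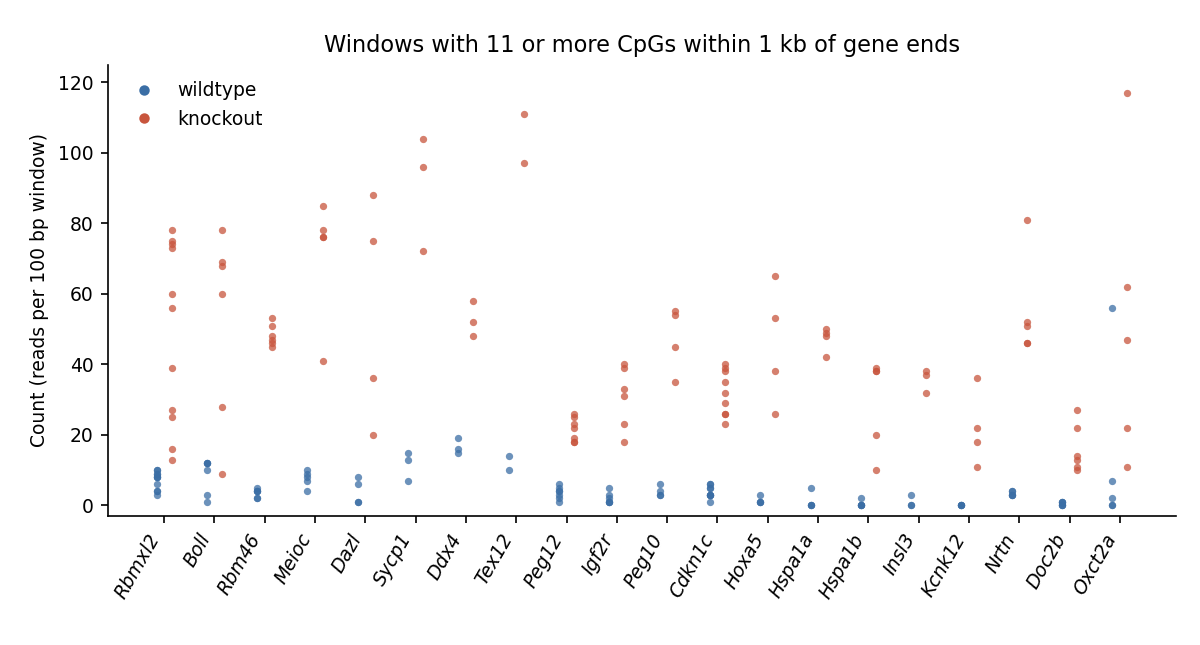
Counts of each CpG-dense window within 1 kb of the ends of 20 named genes, wildtype in blue and knockout in red. Apart from 1 wildtype window of Oxct2a at 56 counts, no wildtype window shown exceeds 19, while all knockout windows but 1, of Boll at 9, lie between 10 and 117.

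CpG-dense windows were found on each of the 19 autosomes, with 113 to 437 per chromosome. The median log2 ratio by chromosome ran from 0.90 to 2.31, the wildtype median from 6 to 58 and the knockout median from 47 to 105. The share at least 2-fold higher ran from 45.2% to 76.9%, so on each autosome it was above the 17.1% of all listed windows.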

How the data were processed

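Methylated DNA of 2 mouse testes was measured, 1 library per genotype. Bowtie2 2.2.6, edgeR and mm10 are named in the submitters' processing notes. The deposited table gives 100 bp windows, with columns named as the MEDIPS package names them, per the file headers. The count of a window is the whole number of reads deposited by the authors, and the deposited RPKM is that count per window length and library reads. From counts and RPKM the library sizes of 87710791 and 98549116 reads were recovered. Window counts on the autosomes summed to 105017291 and 142494216, above the reads, so a read counts in several windows. The relative methylation score and the CpG number of each window were deposited by the authors, and no scale is given for the score. The log2 fold change of the authors served for 1 alternative scaling. The deposited p-value was at most 0.05 in every window and equalled the adjusted one in all 2537435, and no p is reported here. Read extension, duplicate removal and multiple mapping are not given in the sources used here. Another 10 columns of values per sample or group were not used.

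Ratios, medians and exact Clopper-Pearson 95% intervals were computed in Python 3.11.15 with numpy 2.4.6, pandas 2.3.3 and scipy 1.17.1. Windows with a count of 0 were set to 3 counts, and gene ends without any count to 12 window counts. The interval of a median is the order-statistic interval over windows. Genes and promoters came from RefSeq for GRCm38.p6, and gene starts from its promoter table, which covers 18 autosomes here. The rule for names took the 10 clusters with the most windows, the 5 windows with the most CpGs, and the 5 at each end by interval bound. It also took the 10 genes with the most windows, the 10 higher and up to 10 lower gene ends by bound, up to 4 genes of each of 13 lists, and Zbtb33, without predicted or Riken symbols among genes. Other names, such as those at lower windows, dense stretches and list members outside it, were chosen after their values were seen. The windows, lists and tests were chosen with earlier results of these data known. Other scalings, CpG thresholds, floors, distances and minimums were tried. Lists also hold a few noncoding genes, such as Kcnq1ot1. Windows outside the table were not analysed here.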

Additional observations from a re-analysis of the deposited data

Results flagged for a closer look

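The sex chromosomes were outside the comparisons above and also held windows with 11 or more CpGs. On chromosome X, 146 windows had medians of 22 wildtype and 67.5 knockout counts, 142 of them were higher in the knockout library, and the median log2 ratio was 1.46. On chromosome Y, 36 windows had medians of 53 and 107 and a median log2 ratio of 0.46, and 23 of 36 were higher. Both drew a closer look because they hold signal in windows that no comparison used. Adding them to the autosomal windows left each share and median within its interval, and the difference between X and Y was not tested.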

How the results depend on the processing

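No paired analysis was possible because each genotype has 1 library. Some median log2 ratios changed sign with windows of 5 or more CpGs at 0. That of the chr17 ribosomal RNA unit went from 0.31 to -0.35, and that of all listed windows from 0.39 to -0.27. Windows with 50 to 99 wildtype counts went from 0.65 to -0.01, and those with 100 or more from 0.42 to -0.25. No other median, share or count named below changed direction. Scaling by total counts, by the authors' shift and with windows of 5 or more CpGs at 0 moved the median log2 ratio from 1.83 to 1.56, 1.96 and 1.17, the share at least 2-fold higher from 63.8% to 58.7%, 68.0% and 52.7%, and the share at least 4-fold higher from 46.4% to 40.4%, 48.6% and 31.6%. The median of all listed windows moved by -0.27, 0.13 and -0.66. Gene ends called lower numbered 2 with total counts and 3 with dense windows at 0. Thresholds of 10, 12 and 15 CpGs gave medians of 1.08, 2.15 and 2.30, shares at 2-fold of 52.0%, 72.4% and 82.4%, and at 4-fold of 37.5%, 53.3% and 58.4%. The RMS difference was 0.00738 at 10 and 0.00633 at 15 CpGs, and the share with a neighbour 42.9% at 12 and 37.2% at 15. A summed count of 50 or more gave 0.94, 47.9%, 32.6%, an RMS difference of 0.00972 and 26.9% with a neighbour. A floor of 1 count gave 2.03 and, at 4-fold, 50.3%. Within 500 bp of gene ends lay 10.01% of windows, with 79 genes called higher. Within 2 kb lay 25.1%, with 253 higher and 6 lower. Without division into fragments 341 gene ends were higher and 12 lower, and with a minimum of 10 fragments 241 and 2. Alternatives chosen after seeing the data were leaving out 181 windows of repeated genes, which gave 38.5% with a neighbour, and 1 window per cluster, which gave 1.23, 55.4%, 37.9% and an RMS difference of 0.00695. Of 74 list medians under alternatives all stayed above 0 and 51 stayed within their interval. With total counts, the authors' shift and dense windows at 0, those of the Leydig list were 3.18, 3.59 and 2.79, of Sertoli genes 1.05, 1.45 and 0.66, of ribosomal proteins 4.77, 5.17 and 4.38, of histones 4.45, 4.85 and 4.06, and of spermatid genes 2.62, 3.02 and 2.23. With dense windows at 0, neuronal receptors gave 1.44, developmental factors 1.87 and germline genes 2.37. Within 2 kb, protocadherins gave 2.92, ribosomal proteins 3.53 and spermatid genes 3.52, and with 10 CpGs Sertoli genes gave 1.63 and ribosomal proteins 1.53. Depth limits windows with a wildtype count of 0, whose ratios are lower bounds.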
